A study of Mus musculus with 8 samples.

Results

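The 31 genes described here encode the subunits of NF-kB and the feedback genes that NF-kB switches on to restrain or shape its own response. They were chosen by name, for their known roles, with earlier results of these data already known. They comprise 5 subunits, 6 IkB proteins, 10 ubiquitin editors and their adaptors, 6 survival genes and 4 other targets. All 31 were found among the 48709 genes of the deposited count table, and all 31 were among the 11083 genes that passed the filter on low counts.

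The cells were primary mouse alveolar macrophages, which live in the air spaces of the lung, from Batf2-/- mice and from WT mice of the C57BL/6J strain. BATF2 is a basic leucine zipper transcription factor of the AP-1 family. Both genotypes were treated ex vivo in the same way, with interferon gamma (IFNg) at 10 ng/mL for 4 h and then with 20% Klebsiella pneumoniae culture supernatant for 6 h, so every value below is a level in stimulated cells and no unstimulated group entered the comparison. There were 4 libraries from Batf2-/- cells (libraries 5 to 8) and 4 from WT cells (libraries 1 to 4), each from the pooled cells of 4 mice, so replicate error here is the spread of pools. The sources used here do not give the age of the mice or the strain background of the Batf2-/- mice.

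NF-kB is a dimer of Rel-family proteins that IkB proteins hold inactive in the cytoplasm. Receptors for bacterial products and cytokines activate the IkB kinase (IKK) complex, IkB is degraded, and the freed dimers enter the nucleus. Among the genes they induce are IkB proteins and ubiquitin-editing enzymes that shut the pathway down again. In macrophages this circuit drives the early cytokine response to bacteria and limits its length.

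Total counts ranged from 31730041 to 39888022 per library. Batf2 (ENSMUSG00000039699; GRCm38 chr19:6140983-6172476, plus strand) had 0 counts in all 4 Batf2-/- libraries, against 189, 178, 168 and 138 CPM (the usual unit of counts scaled to library size, here with TMM factors) in the 4 WT libraries. Its level was therefore at least 8244-fold lower in Batf2-/- cells, set against a floor of 3 counts for the whole group, which covers counting error only (edgeR adjusted p = 2.08e-05). Library 8 (Batf2-/-) and library 4 (WT) stood apart from the other 3 of their genotype on the first principal component of log2 CPM, which held 42.5% of the variance, with scores of 28.9 and 43.9, against -34.9 to -1.85 in libraries 5 to 7 and -16.7 to 4.72 in libraries 1 to 3. Macrophage markers summed to 10274 to 18150 CPM in Batf2-/- libraries, against 8529 to 15311 CPM in WT libraries. Lyz2 made up most of that sum, at 7337 to 15805 CPM in Batf2-/- libraries and 5861 to 13015 CPM in WT libraries. Alveolar macrophage markers summed to 6649 to 11374 CPM in Batf2-/- libraries, against 4620 to 5690 CPM in WT libraries, with Car4 called higher. One gene, Chil3, made up most of that sum, at 4242 to 8823 CPM in Batf2-/- libraries, against 2488 to 3968 CPM in WT libraries. Of the 11 tested markers, 7 had log2 fold changes (Batf2-/- over WT) above 0 and 4 below, with a median of 0.39. Those above were Car4 (0.99), Chil3 (0.92), Krt19 (0.81), Marco (0.63), Krt79 (0.52), Ear2 (0.39) and Itgax (0.06). Those below were Pparg (-0.31), Siglecf (-0.26), Fabp4 (-0.14) and Mrc1 (-0.00056). The neutrophil markers summed to 30.3 to 52.7 CPM in Batf2-/- libraries, against 18.8 to 32.3 CPM in WT libraries, and 4 of the 8 (Ly6g, Mpo, Elane and Retnlg) were at 0 in all libraries. S100a8 made up most of that sum, at 21.1 to 46.8 CPM in Batf2-/- libraries and 13.8 to 29.4 CPM in WT libraries. S100a9 had at most 1 count in a library. Lymphocyte markers summed to 0.524 to 3.24 CPM in Batf2-/- libraries, against 0.425 to 0.667 CPM in WT libraries. Dendritic cell markers summed to 4.28 to 5.68 CPM in Batf2-/- libraries, against 5.82 to 7.63 CPM in WT libraries, with Cd209a and Siglech at 0 in all. Clec9a, the 1 dendritic marker called, was lower, at 0.253 ± 0.0717 CPM in Batf2-/- cells and 2.45 ± 0.130 CPM in WT cells, while Zbtb46 averaged 1.92 ± 0.348 CPM in Batf2-/- cells and 0.937 ± 0.263 CPM in WT cells (SD, n = 4 each) without overlap (edgeR adjusted p = 0.0965). Epithelial markers summed to 10.2 to 18.7 CPM in Batf2-/- libraries, against 12.5 to 18.3 CPM in WT libraries, and Epcam made up most of that sum. Stromal and endothelial markers summed to 22.3 to 44.0 CPM in Batf2-/- libraries, against 20.5 to 35.1 CPM in WT libraries. Vwf made up most of that sum, at 20.6 to 41.0 CPM in Batf2-/- libraries and 19.3 to 33.4 CPM in WT libraries. The part of these markers in the results below was not tested.

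Loss of Batf2 left no NF-kB subunit or feedback gene past the threshold. Of the 31 genes, 0 rose and 0 fell at an adjusted p under 0.05 by edgeR's quasi-likelihood test, where 1.11% of all tested genes passed (0.55% higher and 0.559% lower in Batf2-/- cells). The log2 fold changes, Batf2-/- over WT throughout, ran from -0.29 (Ripk2) to 0.65 (Tnip1), with 16 above 0 and 15 below, and their median was 0.03 beside -0.01 over all tested genes. At an unadjusted p under 0.05, 4 genes were higher in Batf2-/- cells (Tnip1, Tnfaip2, Malt1 and Traf1) and 0 lower, while 8.5% of all tested genes passed in either direction and 5.46% were higher. Under DESeq2, 2 of the 31 passed (Tnip1 and Tnfaip2; 2.68% of genes tested, 1.66% higher). Of the 31 genes, 4 had all Batf2-/- libraries above all WT libraries (Tnip1, Malt1, Tnfaip2 and Zc3h12c) and 0 had all below, beside 6.33% of all tested genes that did not overlap, 3.03% higher and 3.29% lower. Summed over the 31 genes, the level was 13011 to 13454 CPM in Batf2-/- libraries, against 12054 to 13654 CPM in WT libraries. These are bulk libraries, so a change in the number of cells that express a gene and a change in RNA per cell cannot be told apart.

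The count of genes called depended on how the libraries were lined up. Libraries at the same position of the table under the 2 genotype headings deviated together, and a fit with that position as a replicate block called 7 of the 31 higher (Nfkb2, Nfkbia, Bcl3, Tnip1, Traf1, Malt1 and Tnfaip2) and 3 lower (Ripk2, Bcl2a1a and Bcl2a1d), beside 12.5% of all tested genes called with the same block, 6.97% higher and 5.58% lower. The labels do not say that a table position marks a shared batch, litter or day. Values with the block are given below beside each of these 10 genes.

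**Figure D1:**
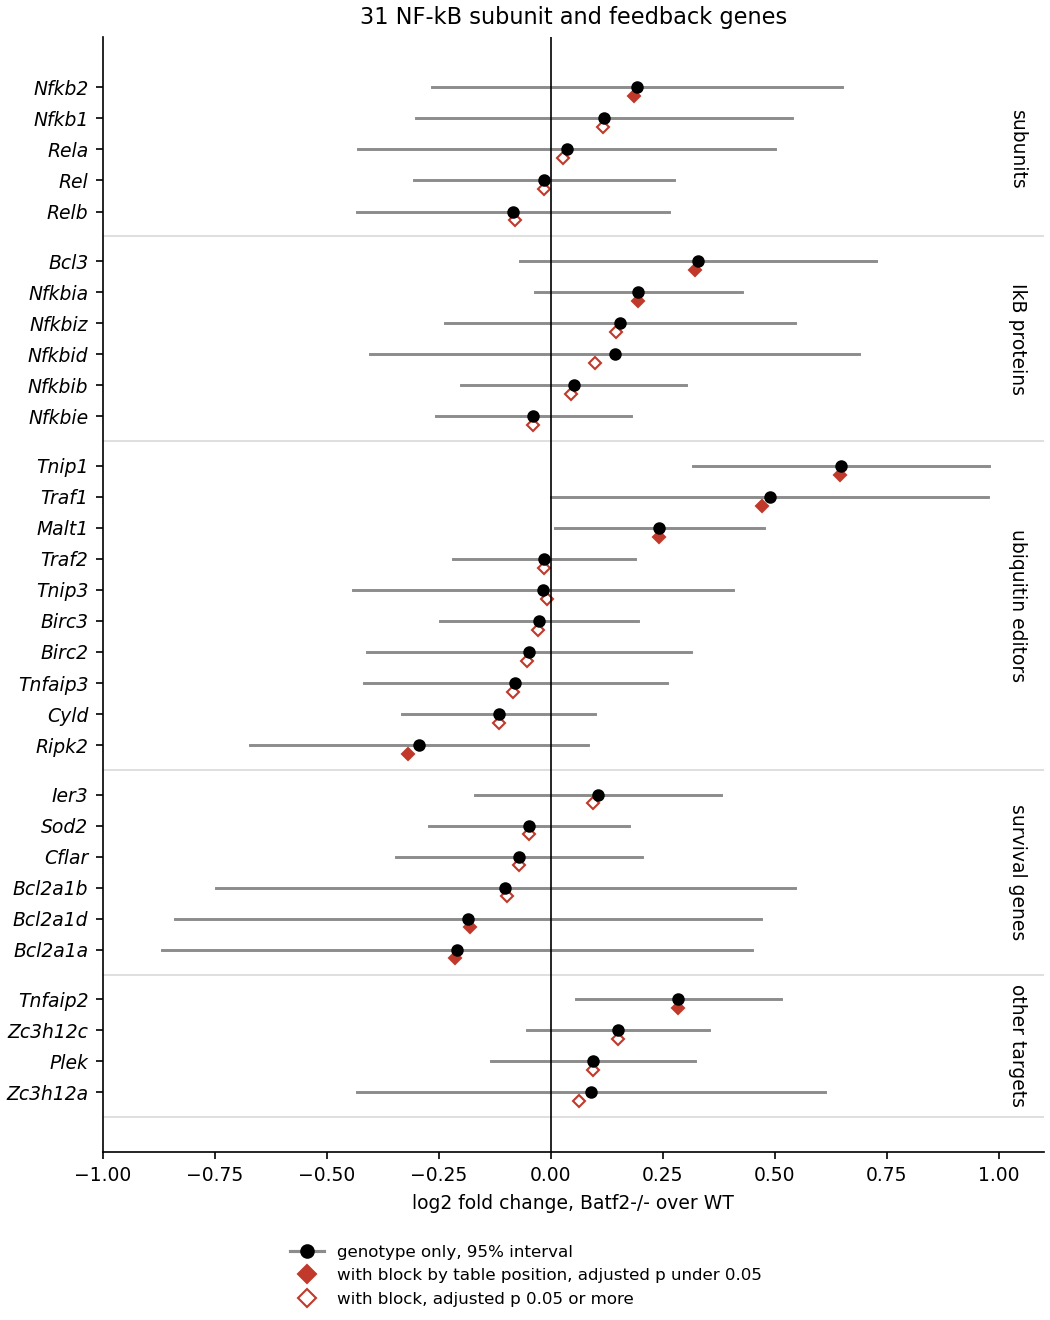
Log2 fold change (Batf2-/- over WT, x axis) of the 31 genes by role, with black points and grey lines for the fit on genotype only and its 95% confidence interval, and red diamonds for the fit with the block by table position, filled where the adjusted p was under 0.05. The intervals of Tnip1, Malt1, Tnfaip2 and Traf1 lie above 0 and all others cross it, Tnip1 lies farthest to the right at 0.65, and 10 diamonds are filled.

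NF-kB dimers are built from 5 proteins: RELA, REL and RELB, which carry a transactivation domain, and the products of Nfkb1 and Nfkb2, which are made as long precursors and processed. None of the 5 passed the test, their log2 fold changes ran from -0.08 to 0.19 with a median of 0.03, and the groups overlapped for all of them.

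Nfkb2 (ENSMUSG00000025225; GRCm38 chr19:46304320-46312385, plus strand) encodes the precursor of the alternative NF-kB pathway and is itself an NF-kB target. It stood at 355, 329.5, 289 and 202 CPM in Batf2-/- libraries 5 to 8, against 313, 278, 247 and 190.2 CPM in WT libraries 1 to 4. The first 3 Batf2-/- libraries lay above the middle of the WT range and library 8 lay near its low end. The means were 294 ± 66.7 CPM in Batf2-/- cells and 257 ± 52.1 CPM in WT cells (SD, n = 4 each), a log2 fold change of 0.19 (95% interval -0.26 to 0.65, edgeR adjusted p = 1.00). With the block it passed, at 0.19 (edgeR adjusted p = 0.0198), and Batf2-/- was higher at 4 of 4 table positions. Nfkb2 is one of the feedback genes whose promoter holds matches to the NF-kB consensus. The 250 bases before its most upstream RefSeq start (chr19:46304487-46304736, plus strand, GRCm38.p6) are shown for that reason. They lie inside the gene bounds given above, whose annotation starts the gene farther upstream than RefSeq. The sequence is written 5′ to 3′ with the 3 matches, a pair of which overlap, in capitals.

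Nfkb2 promoter: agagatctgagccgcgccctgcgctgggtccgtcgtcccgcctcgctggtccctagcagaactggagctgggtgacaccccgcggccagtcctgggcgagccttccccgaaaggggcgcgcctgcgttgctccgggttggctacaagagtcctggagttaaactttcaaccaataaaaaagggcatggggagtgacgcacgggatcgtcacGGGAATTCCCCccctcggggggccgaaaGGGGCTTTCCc

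Nfkb1 (ENSMUSG00000028163; GRCm38 chr3:135584655-135691547, minus strand) encodes the precursor of the DNA-binding partner in the classical dimer. It stood at 355, 322, 283 and 218 CPM in Batf2-/- libraries, against 313, 302, 271 and 199.7 CPM in WT libraries. The ranges overlapped nearly throughout, with means of 295 ± 58.9 CPM in Batf2-/- cells and 271 ± 51.1 CPM in WT cells (SD, n = 4 each) and a log2 fold change of 0.12 (-0.30 to 0.54; with the block, edgeR adjusted p = 0.0960).

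Rela, the main transactivating subunit of the classical dimer, stood at 208, 177, 148 and 116 CPM in Batf2-/- libraries, against 197, 168, 154 and 116 CPM in WT libraries. Library 8 (Batf2-/-) and library 4 (WT) had the same level to 3 digits, and the log2 fold change was 0.03 (-0.43 to 0.50). Rela lies on chromosome 19, 492853 bases from Batf2. Of the 180 tested genes within 5 Mb of Rela, 3 were called (Batf2, Majin and Snx15), or 26 with the block. Over chromosome 19 as a whole 10 of 410 were called (2.44%). Over all tested genes 1.11% were called, or 12.5% with the block.

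Rel encodes c-Rel, the subunit best known for driving cytokine genes in lymphoid and myeloid cells. It stood at 85.6, 78.5, 73.6 and 63.5 CPM in Batf2-/- libraries, against 87.0, 77.1, 74.6 and 65.7 CPM in WT libraries, a log2 fold change of -0.02 (-0.31 to 0.28). Its means differed by under 1 CPM, 75.3 ± 9.29 CPM in Batf2-/- cells and 76.1 ± 8.77 CPM in WT cells (SD, n = 4 each).

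Relb, the partner of the processed Nfkb2 product, stood at 58.9, 53.2, 47.0 and 41.9 CPM in Batf2-/- libraries, against 62.3, 59.1, 49.3 and 42.4 CPM in WT libraries, a log2 fold change of -0.08 (-0.43 to 0.26). Batf2-/- was lower at 4 of 4 table positions, yet Relb did not pass with the block either (edgeR adjusted p = 0.316).

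**Figure D2:**
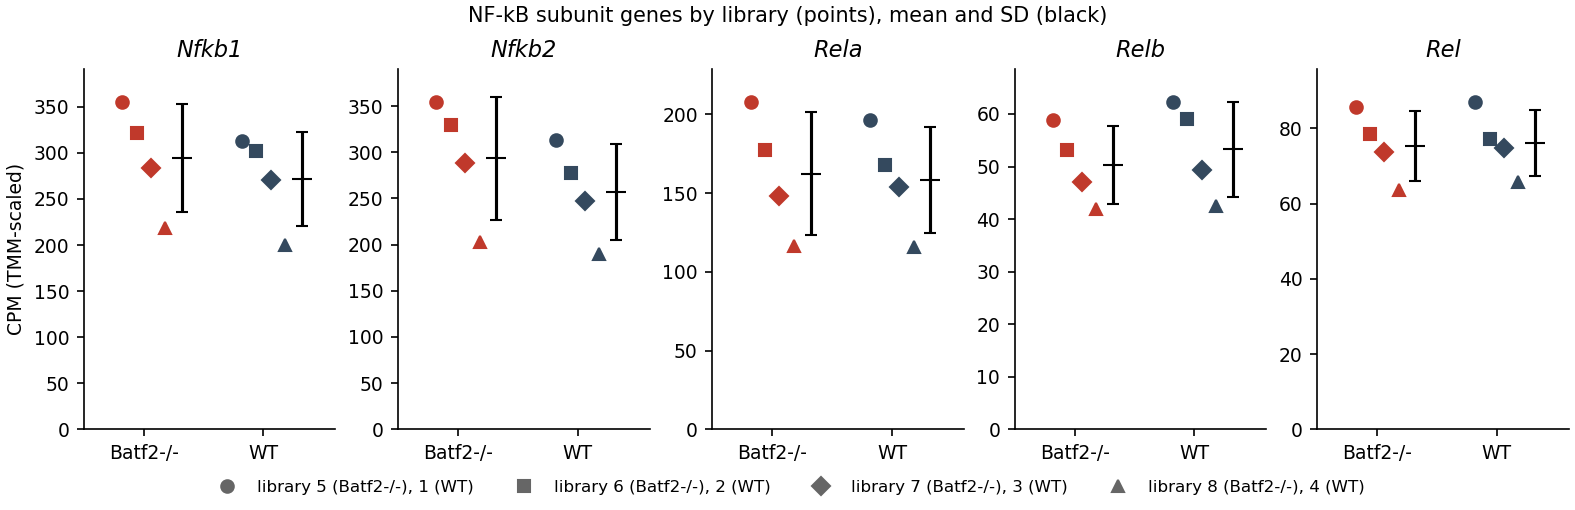
CPM (y axis, from 0) of the 5 NF-kB subunit genes in each Batf2-/- library (left in each panel) and WT library (right), with symbols for table position and bars for mean ± SD over 4 libraries. The 2 groups overlap in every panel, and library 8 (Batf2-/-) and library 4 (WT) hold the lowest value of their group in all 5.

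The mix of subunit messages was compared per length, in CPM per kilobase of annotated exon, since longer messages collect more counts. Length was the union of all annotated exons of a gene, at 12061 bases for Nfkb1, 4584 for Nfkb2 and 3072 for Rela. The share and place of Nfkb1 rest on that length. Its mean in WT cells was 271 CPM, beside 257 CPM for Nfkb2 and 158 CPM for Rela. Nfkb2 made up 37.0% to 40.2% of the 5-gene total in Batf2-/- libraries, against 35.9% to 36.7% in WT libraries, with no overlap. Its mean share was 38.9% ± 1.47 in Batf2-/- cells and 36.3% ± 0.374 in WT cells (SD, n = 4 each; exact permutation p = 0.0286 two-sided, the smallest that 4 against 4 allows, and 0.143 after Benjamini-Hochberg adjustment over the 5 shares). Rela held 30.8% to 33.6% in Batf2-/- libraries, against 32.7% to 34.4% in WT libraries, and Nfkb1 held 14.6% to 15.1% in Batf2-/- libraries, against 14.0% to 15.1% in WT libraries. Relb held 7.54% to 9.04% in Batf2-/- libraries, against 8.52% to 9.46% in WT libraries, and Rel held 5.70% to 7.12% in Batf2-/- libraries, against 6.23% to 7.62% in WT libraries. No share passed after adjustment (lowest adjusted p = 0.143, exact permutation tests). With 4 against 4, a lone share at the smallest possible p cannot pass after adjustment over 5 shares. The adjusted result therefore cannot decide whether the share of Nfkb2 differed. The shares also sum to a whole and so move together. This test does not use the table position. At the 4 positions the share of Nfkb2 was higher in Batf2-/- cells by 1.04 to 4.08 percentage points. Since its groups do not overlap, any pairing would give that sign. The shares of Rela, Relb and Rel were lower at all 4 positions, while that of Nfkb1 was higher at 2 of 4. By mean level per length the order was Nfkb2, Rela, Nfkb1, Relb and Rel in both genotypes, and every library held this order. Between libraries, the ranges of the first pair and of the last pair overlapped.

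The 6 IkB proteins hold NF-kB dimers in the cytoplasm or, for the atypical members Bcl3, Nfkbiz and Nfkbid, act on them in the nucleus. None passed the test, 5 of the 6 had a log2 fold change above 0, and the median was 0.15. Summed, they stood at 738 to 864 CPM in Batf2-/- libraries, against 729 to 778 CPM in WT libraries.

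Nfkbia (ENSMUSG00000021025; GRCm38 chr12:55489410-55492647, minus strand) encodes IkB alpha, the classical inhibitor that NF-kB resynthesises within its own feedback loop. It stood at 233, 230.3, 216 and 256 CPM in Batf2-/- libraries, against 195, 205, 194 and 222 CPM in WT libraries. All Batf2-/- libraries lay above WT libraries 1 to 3, and WT library 4 lay above Batf2-/- library 7. The means were 234 ± 16.5 CPM in Batf2-/- cells and 204 ± 13.1 CPM in WT cells (SD, n = 4 each), a log2 fold change of 0.19 (-0.04 to 0.43, edgeR adjusted p = 0.749). With the block it passed at 0.19 (edgeR adjusted p = 0.0129), higher at 4 of 4 positions. The 250 bases before its start (chr12:55492648-55492897, minus strand, GRCm38.p6) are shown because Nfkbia is the textbook NF-kB feedback promoter. They hold 1 consensus match, in capitals, which ends 19 bases before the RefSeq start.

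Nfkbia promoter: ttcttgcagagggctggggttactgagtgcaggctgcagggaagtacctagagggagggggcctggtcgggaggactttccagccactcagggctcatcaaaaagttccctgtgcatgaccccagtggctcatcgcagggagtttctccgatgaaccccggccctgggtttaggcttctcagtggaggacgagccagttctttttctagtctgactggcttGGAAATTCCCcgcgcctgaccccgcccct

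Bcl3, a nuclear IkB protein that binds dimers of the processed subunits, stood at 31.3, 32.2, 26.7 and 20.1 CPM in Batf2-/- libraries, against 23.4, 25.2, 22.4 and 16.9 CPM in WT libraries. Libraries 5 to 7 lay above every WT library, and library 8 lay within the WT range. The log2 fold change was 0.33 (-0.07 to 0.73, edgeR adjusted p = 0.767), the largest of the 6, and with the block it passed at 0.32 (edgeR adjusted p = 0.00604).

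Nfkbiz, which encodes a nuclear IkB protein needed for Il6 induction in mouse macrophages, stood at 125, 102, 88.8 and 75.9 CPM in Batf2-/- libraries, against 105, 91.6, 83.2 and 72.3 CPM in WT libraries, a log2 fold change of 0.15 (-0.24 to 0.55; with the block, edgeR adjusted p = 0.0874). Nfkbid, the other nuclear member, averaged 44.3 ± 14.3 CPM in Batf2-/- cells and 40.1 ± 6.58 CPM in WT cells, at 0.14. Nfkbib, a cytoplasmic inhibitor, averaged 194 ± 21.6 CPM in Batf2-/- cells and 187 ± 7.45 CPM in WT cells (SD, n = 4 each), at 0.05. Nfkbie, another cytoplasmic inhibitor, averaged 209 ± 14.2 CPM in Batf2-/- cells and 215 ± 5.21 CPM in WT cells (SD, n = 4 each), at -0.04. Nfkbib overlaps Sirt2 on the opposite strand, and the strand setting of the count is not stated. The same limit holds for Nfkb2, Bcl3, Tnip1, Cyld, Traf2, Bcl2a1d, Tnfaip2, Zc3h12c and Plek, which also overlap annotated genes on the opposite strand. Nfkb1 and Ripk2 overlap Gm43430 and Gm22690 on the same strand.

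The ubiquitin editors cut, add or read the ubiquitin chains that carry the signal to the IKK complex. Adaptors and signalling proteins such as Traf1, Malt1 and Ripk2 are grouped with them here. Of the 10, 0 passed the test, 3 had an unadjusted p under 0.05 and all 3 of these were higher (Tnip1, Malt1 and Traf1), while the median was -0.02. Their sum was 1336 to 1659 CPM in Batf2-/- libraries, against 1249 to 1467 CPM in WT libraries.

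Tnip1 had the largest difference of the 31 genes. Tnip1 (ENSMUSG00000020400; GRCm38 chr11:54910785-54962917, minus strand) encodes a ubiquitin-binding partner of TNFAIP3 that restrains NF-kB signalling. It stood at 291, 277, 242 and 206 CPM in Batf2-/- libraries, against 168, 178, 173 and 131 CPM in WT libraries. Every Batf2-/- library lay above every WT library, and library 8 (Batf2-/-) and library 4 (WT) were the lowest of their groups. The means were 254 ± 38.1 CPM in Batf2-/- cells and 162 ± 21.4 CPM in WT cells (SD, n = 4 each), a 1.57-fold difference, or 0.65 on the log2 scale (SE 0.15, 95% interval 0.32 to 0.98). Its unadjusted p was 0.00155, rank 183 among all tested genes, and its edgeR adjusted p of 0.0938 missed the threshold.

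Tnip1 passed the threshold under 5 of 17 alternative settings. The adjusted p was 0.00241 with DESeq2, 0.0106 with limma-voom and library quality weights (3.45% of all genes called, 2.13% higher), 4.94e-05 with the replicate block in edgeR, 0.0438 in edgeR without library 8 (0.743% of genes called higher) and 0.0127 in edgeR without libraries 4 and 8 (1.85% called, 1.19% higher). Over all 17 settings it ran from 4.94e-05 to 0.235, and leaving out each library in turn gave log2 fold changes of 0.57 to 0.73. At the 4 table positions the log2 differences, Batf2-/- minus WT, were 0.80, 0.64, 0.48 and 0.66. Tnip1 lies on chromosome 11, where 23 of 933 tested genes were called (2.47%). Of the 88 tested genes within 5 Mb of it, 2 were called (Anxa6 and Igtp), or 15 with the block. The shares over all tested genes were 1.11%, or 12.5% with the block.

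The Tnip1 promoter carried a palindromic NF-kB match. In the 250 bases before the RefSeq start (chr11:54962941-54963190, minus strand, GRCm38.p6), 3 overlapping matches form a single run, in capitals, and the nearest ends 46 bases before the start. No AP-1 core (TGANTCA) was found in this window.

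Tnip1 promoter: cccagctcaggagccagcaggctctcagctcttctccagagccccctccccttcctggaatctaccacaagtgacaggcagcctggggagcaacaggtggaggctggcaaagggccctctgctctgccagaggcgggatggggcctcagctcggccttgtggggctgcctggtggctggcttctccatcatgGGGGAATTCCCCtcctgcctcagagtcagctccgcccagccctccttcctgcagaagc

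**Figure D3:**
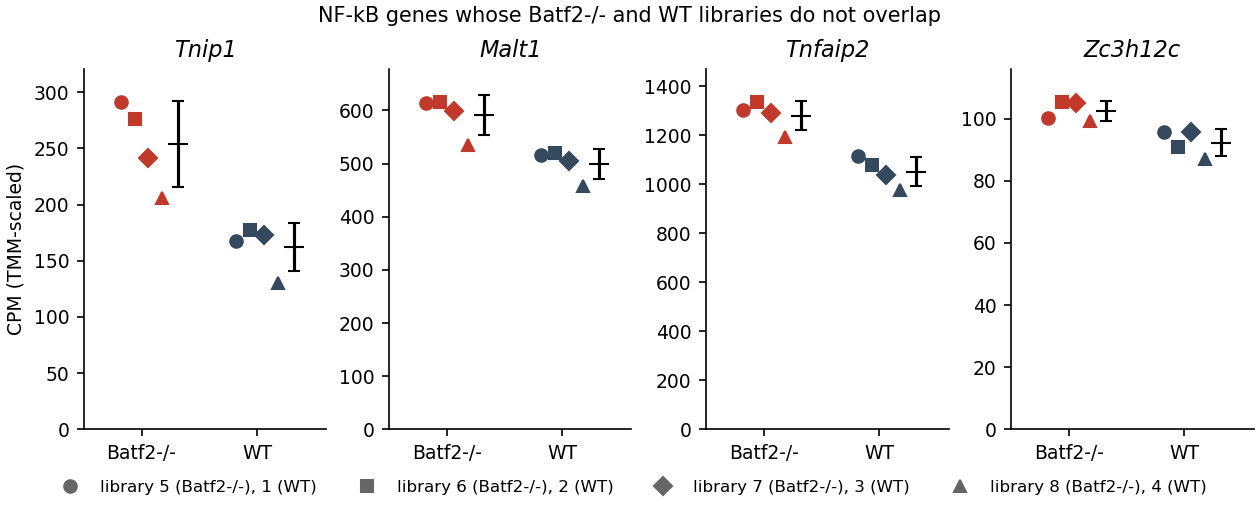
CPM (y axis, from 0) of the 4 genes whose Batf2-/- libraries (left in each panel) all lie above their WT libraries (right), with symbols for table position and bars for mean ± SD over 4 libraries. Tnip1 shows the widest gap relative to its level, at 206 to 291 CPM in Batf2-/- cells and 131 to 178 CPM in WT cells.

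Tnfaip3, the ubiquitin-editing enzyme that TNIP1 partners, did not pass in any of the 17 settings. Tnfaip3 (ENSMUSG00000019850; GRCm38 chr10:19000910-19015657, minus strand) stood at 409.6, 394, 351 and 281 CPM in Batf2-/- libraries, against 439, 388, 372 and 318 CPM in WT libraries. The groups overlapped over most of their range, and the log2 fold change was -0.08 (-0.42 to 0.26; with the block, edgeR adjusted p = 0.257). Its promoter is shown beside that of Tnip1, as a window of 250 bases (chr10:19015411-19015660, minus strand, GRCm38.p6) that holds both motifs. Nearly all of it lies inside the gene bounds given above, whose annotation starts the gene farther upstream than RefSeq. A window at another RefSeq start (chr10:19011964-19012213) held neither motif. From the 5′ end, the capitals mark an AP-1 core, an NF-kB match 4 bases after it, and a second NF-kB match that ends 2 bases before the RefSeq start.

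Tnfaip3 promoter: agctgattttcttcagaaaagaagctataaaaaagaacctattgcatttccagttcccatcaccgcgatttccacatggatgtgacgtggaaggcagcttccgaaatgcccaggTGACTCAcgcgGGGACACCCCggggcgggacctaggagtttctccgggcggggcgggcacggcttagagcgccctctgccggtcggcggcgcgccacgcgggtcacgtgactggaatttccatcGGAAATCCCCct

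Malt1, on chromosome 18, encodes the paracaspase that joins receptor complexes to IKK and also cleaves feedback proteins. It stood at 615, 616, 599.6 and 535 CPM in Batf2-/- libraries, against 517, 519, 505 and 459 CPM in WT libraries. All 4 Batf2-/- libraries lay above all 4 WT libraries, by a 1.18-fold difference of means on the fitted scale. The log2 fold change was 0.24 (0.01 to 0.48, edgeR adjusted p = 0.554), and with the block it passed at 0.24 (edgeR adjusted p = 0.00241), with differences of 0.22 to 0.25 at the 4 positions.

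Traf1, an adaptor of TNF receptors and a strong NF-kB target, had the lowest level per length of the 31 genes. It stood at 15.3, 11.6, 13.5 and 7.50 CPM in Batf2-/- libraries, against 10.2, 6.89, 9.24 and 7.86 CPM in WT libraries. Libraries 5 to 7 lay above all WT libraries, and library 8 lay inside the WT range. The log2 fold change was 0.49 (0.00 to 0.98, edgeR adjusted p = 0.587). With the block it passed at 0.47 (edgeR adjusted p = 0.0418), although it was higher at 3 of 4 positions and the difference at the remaining one was -0.07.

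Ripk2, the kinase that carries the signal of the intracellular sensors NOD1 and NOD2, had the lowest log2 fold change. It stood at 72.3, 45.4, 52.5 and 43.3 CPM in Batf2-/- libraries, against 73.4, 65.5, 63.9 and 59.1 CPM in WT libraries. Libraries 6 to 8 lay below every WT library, and library 5 lay near the top of the WT range. The log2 fold change was -0.29 (-0.67 to 0.08, edgeR adjusted p = 0.812), and with the block it passed at -0.32 (edgeR adjusted p = 0.0372), lower at 4 of 4 positions.

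The other 5 editors had log2 fold changes between -0.12 and -0.02. Cyld, a deubiquitinase that opposes IKK activation, averaged 58.9 ± 3.03 CPM in Batf2-/- cells and 63.8 ± 3.81 CPM in WT cells (SD, n = 4 each), at -0.12 and lower at 4 of 4 positions, and did not pass with the block (edgeR adjusted p = 0.124). Birc2 and Birc3, which encode ubiquitin ligases of the TNF receptor complex, were at -0.05 and -0.03, Traf2, an adaptor that recruits them, at -0.02, and Tnip3, a relative of Tnip1, at -0.02. Tnip3 averaged 45.0 ± 8.54 CPM in Batf2-/- cells and 45.5 ± 10.7 CPM in WT cells (SD, n = 4 each), and the log2 intervals were -0.44 to 0.41 for Tnip3 and 0.32 to 0.98 for Tnip1. The difference between the 2 genes was not tested.

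Of the 6 survival genes, which protect cells from death while NF-kB is active, 0 passed, 5 had a log2 fold change below 0 and the median was -0.09. Their sum was 3645 to 4982 CPM in Batf2-/- libraries, against 3785 to 5624 CPM in WT libraries.

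Bcl2a1a, Bcl2a1b and Bcl2a1d are near-identical mouse copies of an anti-apoptotic gene of the BCL2 family, on chromosome 9. Their annotated coding sequences are 519 bases long and differ at 12 positions in any of the 3, with identities of 97.9% (Bcl2a1a and Bcl2a1b), 98.7% (Bcl2a1a and Bcl2a1d) and 98.8% (Bcl2a1b and Bcl2a1d). The first 90 coding bases hold 6 of these positions, in capitals, and are shown because the counts of the copies rest on such differences.

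Bcl2a1a: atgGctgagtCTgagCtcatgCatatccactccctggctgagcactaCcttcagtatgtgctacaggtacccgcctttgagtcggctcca

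Bcl2a1b: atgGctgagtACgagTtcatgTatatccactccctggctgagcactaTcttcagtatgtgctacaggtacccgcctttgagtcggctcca

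Bcl2a1d: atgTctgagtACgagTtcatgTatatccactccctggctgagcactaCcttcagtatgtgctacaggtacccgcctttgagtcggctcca

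Bcl2a1a stood at 217, 230.3, 344 and 454 CPM in Batf2-/- libraries, against 278, 261, 363 and 538 CPM in WT libraries, a log2 fold change of -0.21 (-0.87 to 0.45). Bcl2a1d stood at 637, 685, 961 and 1301 CPM in Batf2-/- libraries, against 767, 749.7, 1009 and 1553 CPM in WT libraries, at -0.19 (-0.84 to 0.47). The groups overlapped for both copies, with library 8 (Batf2-/-) and library 4 (WT) highest. With the block Bcl2a1a and Bcl2a1d passed as lower, at -0.21 and -0.18 (edgeR adjusted p = 0.0213 and 0.0285), and Bcl2a1b, at -0.10, did not (edgeR adjusted p = 0.177).

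Without library 4 (WT) all 3 turned above 0, at 0.08 (Bcl2a1a), 0.19 (Bcl2a1b) and 0.11 (Bcl2a1d). With each library left out in turn, the lowest values were -0.45 (Bcl2a1a), -0.34 (Bcl2a1b) and -0.42 (Bcl2a1d). Reads can be split wrongly between such copies, and Gm29094 overlaps Bcl2a1b on the same strand, so each is uncertain alone. Summed, the 3 copies stood at 1563, 1617, 2330.3 and 3145 CPM in Batf2-/- libraries, against 1813, 1784, 2383 and 3643 CPM in WT libraries, a log2 fold change of -0.15 (SE 0.29, edgeR adjusted p = 1.00). Bcl2a1a made up 13.9% to 14.8% of that sum in Batf2-/- libraries, against 14.6% to 15.4% in WT libraries, and Bcl2a1b made up 43.4% to 45.3% in Batf2-/- libraries, against 42.3% to 43.4% in WT libraries.

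Ier3, an early-response gene that modulates cell death, stood at 74.8, 75.6, 68.4 and 54.1 CPM in Batf2-/- libraries, against 62.6, 64.3, 62.6 and 64.3 CPM in WT libraries. Libraries 5 to 7 lay above all WT libraries and library 8 below all of them, at a log2 fold change of 0.10 (-0.17 to 0.38). The WT libraries spread by an SD of under 1 CPM, 63.5 ± 0.990 CPM, while Batf2-/- cells averaged 68.2 ± 9.98 CPM (SD, n = 4 each). Cflar, which encodes an inhibitor of caspase activation, was at -0.07, and Sod2, the mitochondrial superoxide dismutase, at -0.05. Cflar averaged 557 ± 56.0 CPM in Batf2-/- cells and 585 ± 58.8 CPM in WT cells, and Sod2 averaged 1344 ± 53.1 CPM in Batf2-/- cells and 1391 ± 68.2 CPM in WT cells (SD, n = 4 each).

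The other 4 targets all had log2 fold changes above 0, with a median of 0.12, and none passed the test. Their sum was 5489 to 6078 CPM in Batf2-/- libraries, against 5134 to 5604 CPM in WT libraries.

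Tnfaip2, a TNF-induced gene whose product takes part in membrane protrusions, stood at 1303, 1335, 1289 and 1193 CPM in Batf2-/- libraries, against 1115, 1078, 1037 and 977 CPM in WT libraries. The lowest Batf2-/- library lay above the highest WT library. The log2 fold change was 0.28, or 1.22-fold (0.06 to 0.51 on the log2 scale, edgeR adjusted p = 0.389). It passed with DESeq2 (adjusted p = 0.0344) and with the block, at 0.28 (edgeR adjusted p = 0.00106), with differences of 0.23 to 0.31 at the 4 positions.

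Zc3h12c, of the Regnase family of RNases that degrade inflammatory messages, stood at 100.2, 105, 105 and 99.1 CPM in Batf2-/- libraries, against 95.8, 90.9, 95.7 and 86.9 CPM in WT libraries. The groups did not overlap, but the gap between them was small beside the group means, and the log2 fold change of 0.15 (-0.05 to 0.35, edgeR adjusted p = 0.856) did not pass with the block either (edgeR adjusted p = 0.0658). Zc3h12a, the better known Regnase gene, averaged 168 ± 47.7 CPM in Batf2-/- cells and 158 ± 32.4 CPM in WT cells (SD, n = 4 each), at 0.09 (-0.43 to 0.61). Plek, a protein kinase C substrate of blood cells, stood at 4325, 4318, 4515 and 4095 CPM in Batf2-/- libraries, against 4203, 3858, 3849.7 and 4259.5 CPM in WT libraries, at 0.09 (-0.13 to 0.32).

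Ordered by level per length, the anti-apoptotic Bcl2a1b led the 31 genes at 1171 ± 399 CPM per kilobase of exon in Batf2-/- cells and 1256 ± 451 in WT cells (SD, n = 4 each). It was followed by Bcl2a1d, Plek, Bcl2a1a and Tnfaip2 in both genotypes, and the spread of Bcl2a1b, Bcl2a1d and Plek overlapped. Within every library Bcl2a1b lay above Bcl2a1d, while the place of Plek varied. Traf1 was last, at 1.36 ± 0.378 in Batf2-/- cells and 0.970 ± 0.167 in WT cells. Nfkbia had the highest level per length of the IkB genes, at 145 ± 10.2 in Batf2-/- cells and 127 ± 8.14 in WT cells. Tnip1 stood at rank 9 of 31 in Batf2-/- cells with 71.8 ± 10.8 and at rank 16 of 31 in WT cells with 45.8 ± 6.05. Lengths were the union of all annotated exons of a gene, which lowers the level of a gene with long rare exons.

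**Figure D4:**
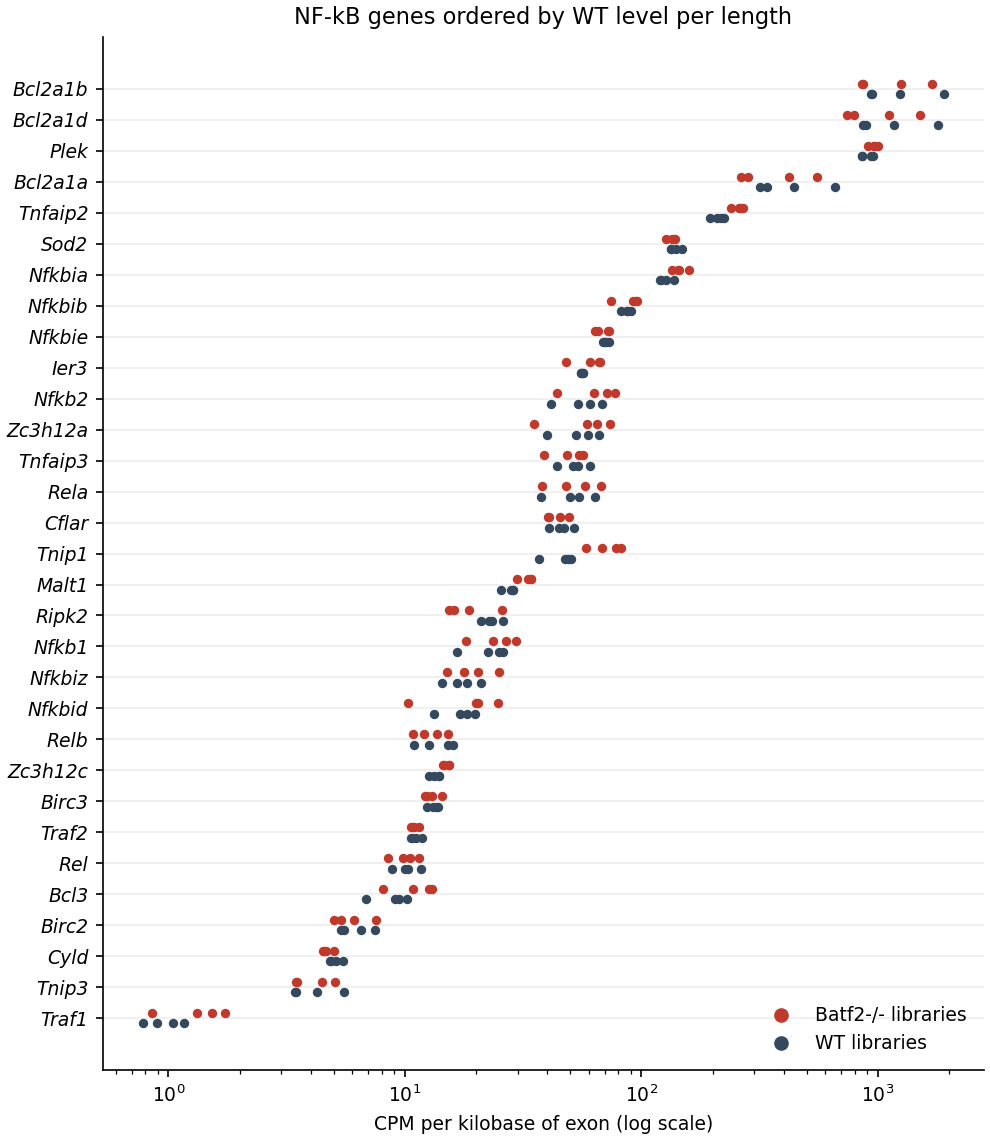
Level per length (CPM per kilobase of exon, log axis) of the 31 genes in each library, ordered by WT mean, with Batf2-/- points above WT points in each row. The genes run from Traf1, at 1.36 in Batf2-/- cells and 0.970 in WT cells on average, to Bcl2a1b at over 1000 in both, and the points of Tnip1, Malt1, Tnfaip2 and Zc3h12c are the only ones that do not overlap between genotypes.

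The spread among libraries of a genotype was wide beside the genotype differences. For 26 of the 31, the ratio of the highest to the lowest library exceeded the fitted genotype fold in both groups, the exceptions being Tnip1, Malt1, Ier3, Tnfaip2 and Zc3h12c. The same share over all tested genes was not counted, so this count is not a trait particular to the 31. Library 8 held the lowest Batf2-/- value for 23 of the 31 genes and library 4 the lowest WT value for 19, beside 40.3% and 41.6% of all tested genes. In library 8, 25 of the 31 genes lay below the mean of libraries 5 to 7, and in library 4, 21 lay below the mean of libraries 1 to 3, while 53.8% and 52.0% of all tested genes did so. The median ratio over the 31 was 0.878 in library 8 and 0.907 in library 4, beside 0.967 and 0.980 over all tested genes.

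The 5 subunits were lower together in these libraries, with ratios of 0.62 to 0.80 in library 8 and 0.67 to 0.83 in library 4. Their summed level was 1062, 960.0, 841 and 642 CPM in Batf2-/- libraries, against 972, 884, 795 and 614 CPM in WT libraries. Nfkbia went the other way, at ratios of 1.13 in library 8 and 1.12 in library 4, as did Tnip3 (1.33 in library 8 and 1.49 in library 4), Birc2 (1.37 in library 8 and 1.29 in library 4) and the Bcl2a1 copies (1.71 to 1.72 in library 8 and 1.79 to 1.84 in library 4). What sets libraries 4 and 8 apart was not tested. Without both, 1 of the 31 genes passed in edgeR (Tnip1).

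**Figure D5:**
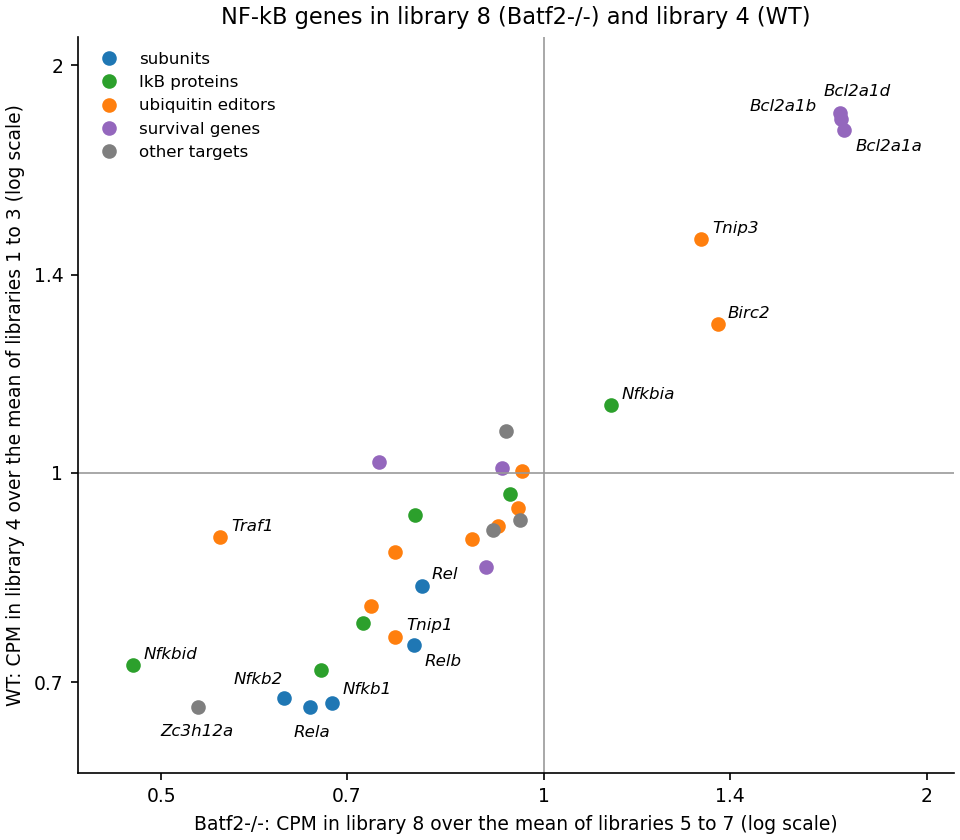
CPM of each of the 31 genes in library 8 over the mean of libraries 5 to 7 (Batf2-/-, x axis, log scale) against library 4 over the mean of libraries 1 to 3 (WT, y axis, log scale), coloured by role, where a value of 1 on either axis is the mean of the other 3 libraries. The subunits lie together at the lower left, below 1 on both axes, and the 3 Bcl2a1 copies at the upper right.

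Promoter letters were counted over the 26 of 31 genes with a RefSeq window (GRCm38.p6; Nfkb1, Relb, Nfkbiz, Malt1 and Ripk2 were not in the table). In the 250 bases before a start, on both strands, 13 of the 26 (50%) held an NF-kB consensus match: Nfkb2, Rel, Nfkbia, Nfkbid, Nfkbie, Tnfaip3, Tnip1, Tnip3, Cyld, Sod2, Ier3, Tnfaip2 and Zc3h12c. The share was 10.6% of 8556 tested genes with a window and 7.25% of all 32851 windows. The AP-1 core TGANTCA was found for 6 of the 26 (23.1%: Nfkb2, Nfkbie, Tnfaip3 and the 3 Bcl2a1 copies, whose windows hold the same TGAATCA as copies of 1 duplicated gene), beside 5.25% of tested genes with a window and 6.75% of all windows. Both motifs shared a window in 3 of the 26 (11.5%: Nfkbie, Tnfaip3 and Nfkb2, the last in a window other than the one shown), beside 0.409% of tested genes with a window. Many of the 31 genes are known as NF-kB targets, so the excess of NF-kB matches is no independent result, and a match is a description of letters, not of binding.

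Neighbouring parts of the pathway were read from the same fit. Of 23 genes of the IKK complex and the steps above it, 0 rose and 0 fell, with a median log2 fold change of 0.01. With the block 2 rose and 1 fell, beside 12.5% of all tested genes called with it. The 3 with the smallest p were Tnfrsf1b, a TNF receptor, at 0.64 (edgeR adjusted p = 0.384), Traf5, a TNF receptor adaptor, at 0.48 (edgeR adjusted p = 0.391), and Map3k8, the kinase held by the Nfkb1 precursor, at -0.26 (edgeR adjusted p = 0.957). Tnfrsf1b stood at 1195, 997, 807 and 663 CPM in Batf2-/- libraries, against 736, 660.3, 552 and 405 CPM in WT libraries, higher at each table position, although the groups overlapped.

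Of 18 other brakes of NF-kB, 0 rose and 0 fell, with a median of 0.01. With the block 1 rose and 2 fell, beside the same 12.5% of all tested genes. Irak3, a pseudokinase that restrains toll-like receptor signalling, was at 0.37 (edgeR adjusted p = 0.365), Trim30a, a tripartite-motif protein, at -0.20 (edgeR adjusted p = 0.773), and Tax1bp1, a ubiquitin-binding partner of TNFAIP3, at -0.14 (edgeR adjusted p = 0.951). Irak3 averaged 54.0 ± 7.57 CPM in Batf2-/- cells and 41.9 ± 3.63 CPM in WT cells (SD, n = 4 each).

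Of 27 tested genes listed here as inflammatory targets of NF-kB, 4 rose and 1 fell in the same fit, beside the 1.11% of all tested genes called. Their median was 0.00. The list was drawn up with earlier results of these data known, so its share called is no independent result. With the block 11 of these 27 were higher and 8 lower, where 12.5% of all tested genes were called. DESeq2 gave 8 higher and 2 lower (2.68% of all genes called), and quality weights 7 higher and 3 lower (3.45% of all). Without libraries 4 and 8, 6 were higher and 1 lower (1.85% of all). At an unadjusted p under 0.05 in edgeR, 9 were higher and 10 lower (8.5% of all). The chemokines Ccl4 (2.83-fold) and Cxcl10 (1.83-fold) and the cytokines Il1b (2.68-fold) and Il23a (4.57-fold, at under 1 CPM in all libraries) rose, with edgeR adjusted p of 0.00445, 0.00802, 0.00626 and 0.0183. Vcam1, an adhesion molecule, fell by 1.83 on the log2 scale, to 5.96 ± 1.11 CPM in Batf2-/- cells, against 21.1 ± 4.28 CPM in WT cells (edgeR adjusted p = 0.00208). The largest fold among the 31 genes was the 1.57 of Tnip1, and the difference between the lists was not tested.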

How the data were processed

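Messenger RNA of 4 Batf2-/- and 4 WT pools was sequenced from stranded mRNA libraries, per the labels' protocols. The authors deposited gene-level read counts without normalization, per the file headers. Per the submitters' processing notes the build was GRCm38 (mm10). The aligner, counter and strand setting are not given in the sources used here. Columns were grouped by the genotype heading above them; the labels' replicate numbers are not on them, and library numbers here are column numbers.

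Counts were tested with edgeR 4.0.16 (R 4.3.3; quasi-likelihood, robust, TMM, default expression filter, genotype only), with Benjamini-Hochberg adjustment over 11083 genes and a threshold of 0.05. CPM values are TMM-scaled. Alternatives used DESeq2 1.42.0, limma 3.58.1 (voom), other scalings and filters, each library left out, libraries 4 and 8 left out, summed Bcl2a1 copies, and a block on table position. The procedure was tested on simulated data. Lengths and coordinates came from the GRCm38 reference annotation, with 48349 identifiers matched. Libraries of a group differed by more than sampling noise (chi-square over degrees of freedom of 32.1 or more).

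Pairing was checked on deviations from the group means. Libraries at the same table position correlated at 0.598, 0.501, 0.272 and 0.759, above every other pairing (0.245 or less). The position comes from the table and not from the labels.

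The genes and lists were chosen with earlier results of these data known. Genes named with all 8 values are the 5 subunits, Nfkbia, Tnfaip3, the 3 of each role with the smallest p and those that passed with or without the block; in each pathway list, those that passed, or else the 3 with the smallest p.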

Additional observations from a re-analysis of the deposited data

How the results depend on the processing

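Over 17 alternatives, 19 of the 31 genes kept the sign of their log2 fold change in all, and 12 changed it in at least 1. Genes called over all genes were 61 higher and 62 lower in Batf2-/- cells, with 0 of the 31. DESeq2 called 212 higher and 131 lower, with 2 of the 31 higher. Library quality weights called 236 higher and 146 lower, with 1 of the 31. A minimum mean of 5 CPM called 33 higher and 38 lower, with 0 of the 31. The replicate block by table position called 772 higher and 618 lower, with 7 of the 31 higher and 3 lower; this pairing by position is a hint from the data, not the design. Without libraries 4 and 8, 133 genes were higher and 73 lower, with 1 of the 31. Leaving out each library in turn gave 17 to 83 higher, 26 to 59 lower, 0 to 1 of the 31 higher, 0 lower, and a median of the 31 between 0.0153 and 0.117; the 1 gene was Tnip1, without library 8. The cause of these shifts was not tested.

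With quality weights Tnip3 was at 0.0043 and Traf2 at 0.0152, with the 5 CPM minimum Rel at 0.0012 and Traf2 at 0.00079, and without libraries 4 and 8 Rel at 0.0054, Tnip3 at 0.0457 and Traf2 at 0.0108. With each library left out, log2 fold changes spanned -0.0827 to 0.0575 (Rel), -0.107 to 0.164 (Rela), -0.0160 to 0.343 (Nfkbid), -0.149 to 0.0204 (Tnfaip3), -0.132 to 0.171 (Tnip3), -0.176 to 0.0734 (Birc2), -0.0776 to 0.0014 (Birc3), -0.0365 to 0.0160 (Traf2), -0.449 to 0.0755 (Bcl2a1a), -0.339 to 0.193 (Bcl2a1b), -0.422 to 0.114 (Bcl2a1d) and -0.0485 to 0.266 (Zc3h12a). The lowest count of any of the 31 genes in a library was 230 (Traf1).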
